A study of Homo sapiens with 4 samples.

Results

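The protein 4.1 family was described through its skipped-exon events in MDA-LM2 cells (LM2 in what follows) and in the parental MDA-MB-231 cells. Its 7 genes are EPB41, EPB41L1, EPB41L2, EPB41L3, EPB41L4A, EPB41L4B and EPB41L5. An event, the choice to keep or skip 1 middle exon between 2 fixed neighbours, was counted as a member where the middle exon lay inside one of these genes on the same strand in GENCODE release 29 (hg38). This gave 74 of 44447 listed events, and 51 of 37641 listed exons. They came from 5 of the 7 genes, since no listed event lay in EPB41L4A or EPB41L4B.

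MDA-LM2 is a derivative of MDA-MB-231 that is highly metastatic to the lung, and MDA-MB-231 itself is a long-established human line of breast carcinoma cells. Neither line was treated, per the labels, and both were grown in the same serum-supplemented medium. Total RNA of 2 samples of each line was sequenced, but the deposited tables hold 1 set of values per line, taken here as pooled. No replicate error exists for any value below, so the intervals cover counting error or the authors' own estimate for that library, and no p-value is given.

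Protein 4.1 family members link the spectrin and actin skeleton under the cell membrane to transmembrane proteins. EPB41 (4.1R) was found in red blood cells, EPB41L1 (4.1N) is best known from neurons, EPB41L2 (4.1G) is widely expressed, and EPB41L3 (4.1B, also called DAL-1) was described as a gene often lost in lung and other carcinomas. These 4 share a FERM domain, which binds membrane proteins, a spectrin-actin binding domain and a C-terminal domain. EPB41L4A, EPB41L4B and EPB41L5 carry a FERM domain but lack the spectrin-actin binding domain, and EPB41L5 acts in epithelial polarity. The genes are known for many alternative exons, and a short exon at the start of the spectrin-actin binding domain of EPB41 is switched on as red cell precursors mature.

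That exon of EPB41 and its counterpart in EPB41L2 are shown because they carry the clearest likeness between paralogues, and because the EPB41L2 exon held the largest difference between the lines among exons with enough reads. The EPB41 exon lies at chr1:29060422-29060484 on the plus strand and the EPB41L2 exon at chr6:130880144-130880206 on the minus strand. Both are coding exons of 63 nt. Capitals mark the bases that are identical at the same position, read 5′ to 3′ in the direction of the gene from the GENCODE transcripts.
EPB41 63-nt exon: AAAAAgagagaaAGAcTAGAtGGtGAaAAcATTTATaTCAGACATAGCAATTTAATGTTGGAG
EPB41L2 63-nt exon: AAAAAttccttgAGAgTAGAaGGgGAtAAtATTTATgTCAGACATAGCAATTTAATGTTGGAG
They shared 50 of 63 bases (79.4%). Identity was uneven along the exon, with 14 of the first 24 bases and 36 of the last 39 bases shared, and the last 26 bases were the same in both. Base composition was also alike, at 30.2% GC in the EPB41 exon and 31.7% GC in the EPB41L2 exon, against a median of 49.2% over 35976 listed exons that match an annotated exon.

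The lines differed mostly in how many reads each paralogue had, above all EPB41L3. Gene levels were read from the best covered event of each gene, as the reads that fit at least 1 of its isoforms, and were scaled to 1000000 such reads over all listed events (RPM). The sums behind this scale were 17366605 reads in LM2 and 21716937 in parental cells. A gene counted as higher or lower where this level differed at least 2-fold and the exact 95% interval of the ratio, which covers counting error only, left out 1. Of the 5 genes measured, 1 was higher in LM2 (EPB41L3), against 3.25% of the 8482 genes whose best covered event was listed for both lines and had at least 20 such reads in a line. Likewise 1 was lower (EPB41L1), against 8.84% of those genes. With 1 gene of 5 in each direction, these shares are not read further. The median gene had a log2 ratio of -0.12, so the scale sits slightly below 0 for the typical gene.

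EPB41L3 (chr18:5392381-5630700, minus strand) had 1284 reads in LM2 and 2 reads in parental cells at its best covered event, the one around a 54-nt exon. This was 73.9 RPM in LM2 and 0.0921 in parental cells. The ratio was 803, with a counting interval from 222 to 6636 that is wide because the parental count is so small. Among the 8482 genes it ranked 1 from the top, and no other gene had a lower interval bound above that of EPB41L3. The nearest lower bound was 47.7, for AADACP1. Genes whose best covered event was listed for 1 line only have no ratio and are not in this ranking. The size of the ratio depended on the event. Over the 7 events of EPB41L3 listed for both lines it ran between 57.5 and 803, all above 1, and their summed reads gave 213. Events of a gene can share neighbouring exons and the reads on them. Counts of events, here and below, are therefore not independent, and sums over events can hold the same reads more than once. A further 5 events were listed for LM2 only. In bulk RNA, more cells that carry a transcript and more of it per cell cannot be told apart.

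Reads that fit neither isoform of the best covered EPB41L3 event numbered 617 in LM2 and 36 in parental cells, a ratio of 21.4 with a counting interval of 15.3 to 30.9. The parental library thus had reads listed for this event, but nearly all of them fit neither of its isoforms. The sources used here do not say what such reads are, or whether they come from EPB41L3 transcripts.

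EPB41L2 (chr6:130839347-131063322, minus strand) was the most abundant member in both lines and the other one with a ratio above 1. Its best covered event, around a 147-nt exon, had 2536 reads in LM2 and 1788 in parental cells, or 146 and 82.3 RPM. The ratio of 1.77 (interval 1.67 to 1.89) did not reach 2-fold. All 20 events of EPB41L2 gave a ratio above 1, between 1.25 and 1.93. Reads that fit neither isoform of the same event did not share this difference, at 3111 in LM2 and 4057 in parental cells, a ratio of 0.959 with an interval of 0.915 to 1.01.

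The remaining members had ratios below 1. EPB41L1 (chr20:36091504-36232799, plus strand) had 56 reads in LM2 and 154 in parental cells at the event around a 105-nt exon, or 3.22 and 7.09 RPM. Its ratio was 0.455 (interval 0.329 to 0.621), and each of its 17 events gave a ratio below 1, between 0.417 and 0.695. The sum over its events gave 0.501, which no longer reaches 2-fold.

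EPB41 (chr1:28887091-29120046, plus strand) had 195 reads in LM2 and 395 in parental cells at the event around a 213-nt exon, or 11.2 and 18.2 RPM. The ratio was 0.617 (interval 0.517 to 0.735), and 19 of 21 events gave a ratio below 1. EPB41L5 (chr2:120013005-120179119, plus strand) had 314 reads in LM2 and 574 in parental cells around a 131-nt exon near its 3′ end, or 18.1 and 26.4 RPM, a ratio of 0.684 (interval 0.594 to 0.786). Neither reached 2-fold, although both intervals leave out 1.

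**Figure D1:**
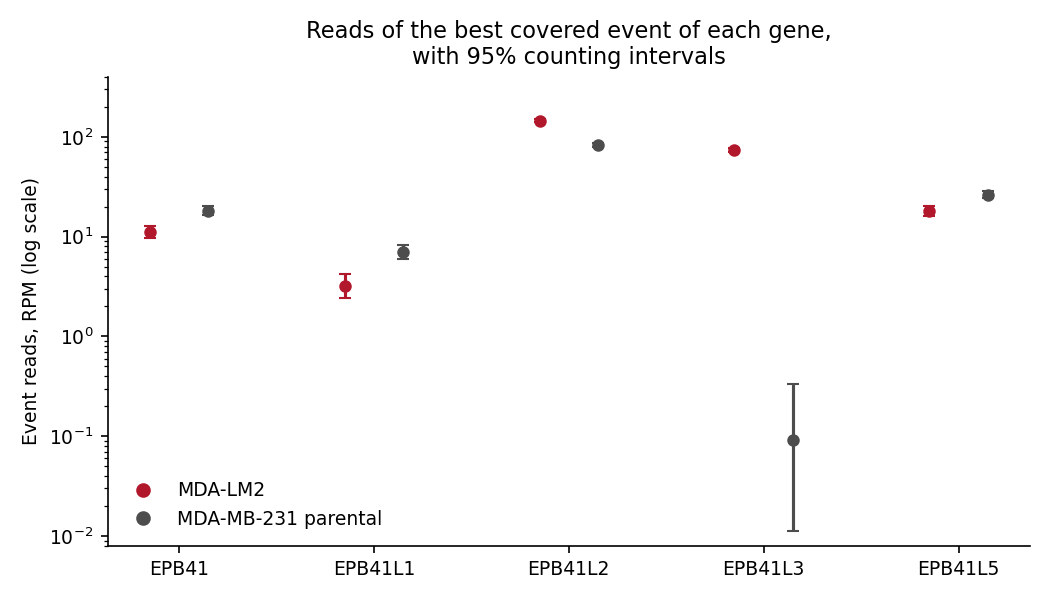
Event reads in RPM (log axis) at the best covered event of each measured gene in MDA-LM2 (left, red) and parental MDA-MB-231 (right, grey), 1 pooled library per line, with bars for the exact 95% counting interval. EPB41L3 stands at 73.9 in LM2 and 0.0921 in parental cells, while the other 4 genes differ by less than 3-fold.

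Set per kilobase of exon in the event, so that genes can be compared with each other, the order of the members changed between the lines. In LM2 the levels were 189 RPM per kilobase for EPB41L2, 158 for EPB41L3, 14.2 for EPB41, 10.3 for EPB41L1 and 4.06 for EPB41L5. In parental cells they were 106 for EPB41L2, 22.9 for EPB41, 22.7 for EPB41L1, 5.94 for EPB41L5 and 0.197 for EPB41L3. The counting intervals of EPB41 and EPB41L1 overlapped in both lines, and those of the other neighbours in these orders did not. EPB41L3 thus made up 42.2% of the summed family level in LM2, against 0.125% in parental cells, and EPB41L2 made up 50.2% in LM2, against 67.3% in parental cells. The sum itself was 375.5 in LM2 and 158.1 in parental cells. These levels and shares rest on 1 event per gene, and another event can give another level. In LM2, the longer EPB41L3 event around the 123-nt exon had 563 fitting reads, against 1284 at the event used. How far the shares move with the event was not tested. The event of EPB41L5 spans long exons, which makes its level per kilobase the least comparable.

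**Figure D2:**
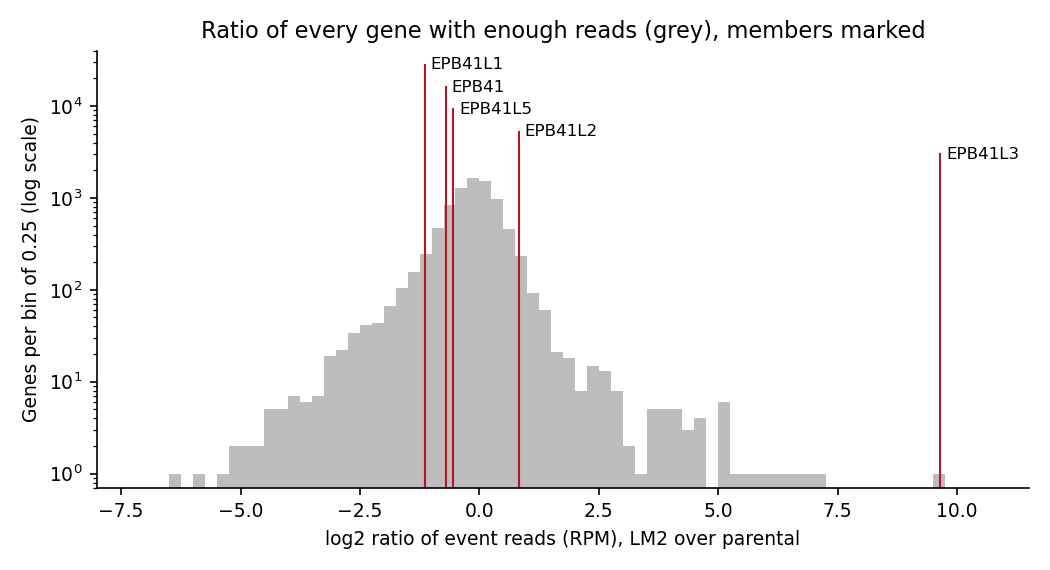
Histogram of the log2 ratio of event RPM, LM2 over parental, for 8482 genes (grey, log count axis). Each has its best covered event listed for both lines, with at least 20 reads in a line. The 5 measured members are red lines whose heights only separate the labels. EPB41L3 lies alone at 9.65, EPB41L2 at 0.83, EPB41L5 at -0.55, EPB41 at -0.70 and EPB41L1 at -1.14.

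The genes whose ratio came nearest to that of EPB41L3, among those with at least 50 reads in a line, were AADACP1, XACT and CDH18. AADACP1, a pseudogene, had 337 reads in LM2 and 3 in parental cells. XACT, a long non-coding RNA, had 88 reads in LM2 and 1 in parental cells. CDH18, a cadherin, had 74 reads in LM2 and 1 in parental cells. Their log2 ratios lay 2.51, 2.87 and 3.12 below that of EPB41L3. The likeness is over 2 pooled libraries and rests on parental counts of 1 to 3.

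For the choice between isoforms, no difference between the lines was called in the exons that could be compared. A comparison required 10 or more informative reads (inclusion or exclusion) per line, with both kinds seen somewhere, which 10 of the 51 exons had: 4 in EPB41, 4 in EPB41L2, 2 in EPB41L1, and none in EPB41L3 or EPB41L5. In the authors' deposited table, 0 of these 10 reached a Bayes factor of 10 together with a change of 0.2 in the level, against 1.25% of 14109 exons in all genes. With a change of 0.1 in place of 0.2 the count was also 0, against 2.07% of all exons. A count of 0 among 10 exons does not stand apart from such small shares. The differences, LM2 minus parental, ran between -0.09 and 0.16 with a median of 0.01, and the median over all 14109 exons was 0.

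**Figure D3:**
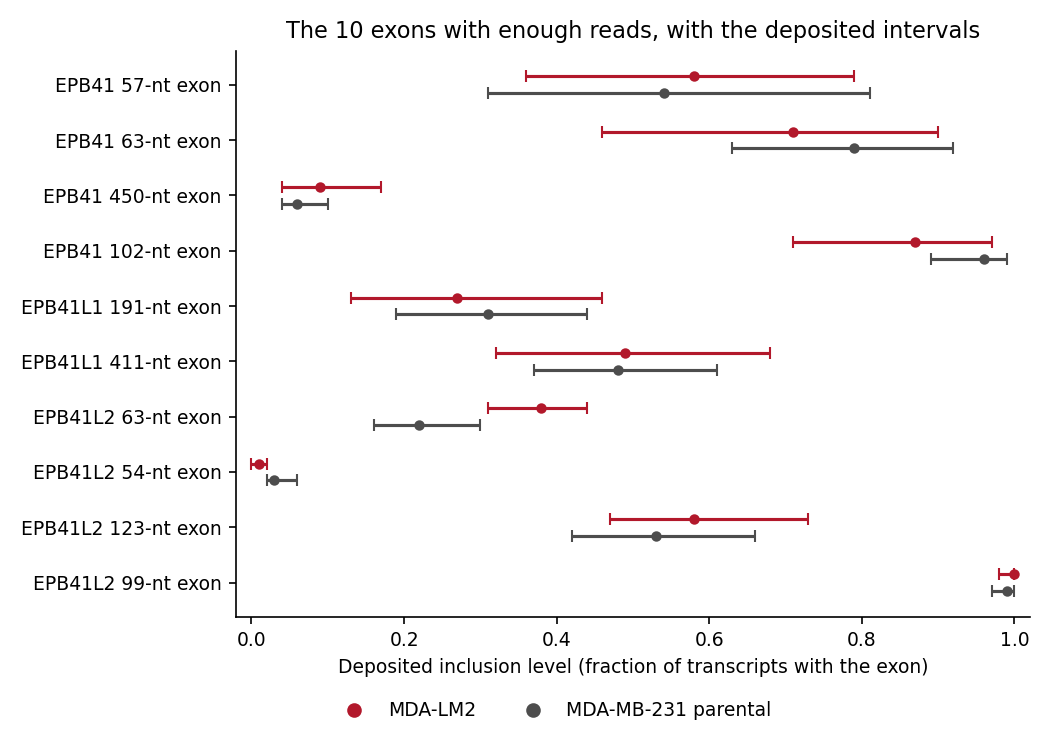
Deposited inclusion level (fraction, horizontal axis) of the 10 exons with enough reads, in MDA-LM2 (upper point, red) and parental MDA-MB-231 (lower point, grey), ordered 5′ to 3′ within each gene, with bars for the deposited interval. The intervals overlap or touch for every exon except the 63-nt exon of EPB41L2, at 0.38 in LM2 and 0.22 in parental cells.

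The 63-nt exon of EPB41L2 had an inclusion level of 0.38 in LM2 (interval 0.31 to 0.44) and 0.22 in parental cells (interval 0.16 to 0.30). The sources used here do not give the level of that interval. Behind it stood 110 inclusion and 42 exclusion reads in LM2, and 44 inclusion and 25 exclusion reads in parental cells, with 2288 and 1699 reads that fit both isoforms. The authors' deposited table gives it a Bayes factor of 6.24, which does not reach 10.

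The reads of that exon were less clear than the deposited level. Inclusion and exclusion reads alone gave levels of 0.567 in LM2 and 0.468 in parental cells. The log2 ratio of the odds of inclusion, LM2 over parental, was 0.58, and its exact interval of -0.38 to 1.51 holds 0. Scaled to the libraries, both kinds of read were more frequent in LM2, the inclusion reads 3.13-fold (interval 2.19 to 4.54) and the exclusion reads 2.10-fold (interval 1.25 to 3.60). In another event of the same exon, with a different downstream neighbour, the levels were 0.96 in LM2 and 0.66 in parental cells. The authors' deposited table gives this event a difference of 0.3 and a Bayes factor of 10.2, which pass both thresholds. It was not among the compared events because no exclusion read was seen in either line.

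The exon that resembles it, the 63-nt exon of EPB41, was mostly included in its event in both lines. Its level was 0.71 in LM2 (interval 0.46 to 0.90) and 0.79 in parental cells (interval 0.63 to 0.92), from 16 inclusion and 2 exclusion reads in LM2 and 39 inclusion and 3 exclusion reads in parental cells. Against the EPB41L2 event with exclusion reads, at 0.38 in LM2 and 0.22 in parental cells, the EPB41 exon stood higher in both lines, with intervals that do not overlap. This order depends on the event. A level is a fraction of the 2 isoforms of 1 event, and the EPB41L2 event at 0.96 in LM2 (interval 0.90 to 0.99) and 0.66 in parental cells (interval 0.48 to 0.88) was above the EPB41 exon in LM2, where the intervals touch, and below it in parental cells, where they overlap. In the remaining event the EPB41L2 exon was at 0.54 in LM2 and 0.39 in parental cells, again with no exclusion read.

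Upstream of it, the 57-nt exon of EPB41 (chr1:29058589-29058645) had levels of 0.58 in LM2 and 0.54 in parental cells, from 16 informative reads in LM2 and 13 in parental cells. In its other event the levels were 0.77 in LM2 and 0.48 in parental cells, and the informative reads alone gave 0.60 in LM2 and 0.625 in parental cells, so its direction depends on the measure. The 450-nt exon of EPB41 (chr1:29096155-29096604), annotated in 1 transcript, was mostly skipped, at 0.09 in LM2 and 0.06 in parental cells. LM2 had 11 inclusion and 7 exclusion reads for it and parental cells 16 and 27. These gave read-based levels of 0.44 in LM2 and 0.229 in parental cells, which do not correct for the length of the exon. The 102-nt exon near the 3′ end of EPB41 (chr1:29109336-29109437) was mostly included, at 0.87 in LM2 and 0.96 in parental cells. For these 3 exons the interval of the log2 odds ratio held 0.

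EPB41 also has a short exon with 2 alternative 3′ ends, 36 and 51 nt long, at chr1:29068733-29068783 on the plus strand. It is shown because the longer form passed the Bayes factor and difference thresholds once no reads were required. Capitals mark the 15 bases present only in the longer form.
EPB41 51-nt exon: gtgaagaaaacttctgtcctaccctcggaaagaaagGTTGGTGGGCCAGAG
The 51-nt form had levels of 0.22 in LM2 (interval 0.02 to 0.73) and 0.82 in parental cells (interval 0.53 to 0.99), and the authors' deposited table gives a Bayes factor of 14.7. The reads behind these levels were 0 inclusion and 0 exclusion reads in LM2 and 7 inclusion and 0 exclusion reads in parental cells, so the LM2 level rests on 84 reads that fit both isoforms. The 36-nt form with the same neighbours was likewise at 0.36 in LM2 and 0.86 in parental cells, from 0 inclusion reads in LM2 and 5 in parental cells, with no exclusion read. In an event with another downstream neighbour and more informative reads, the 36-nt form was at 0.09 in LM2 and 0.12 in parental cells.

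EPB41L2 was the best covered member. Its 99-nt exon (chr6:130865536-130865634) was at 1.00 in LM2 and 0.99 in parental cells in the event with the 123-nt exon as upstream neighbour. That event had 0 exclusion reads among 575 informative reads in LM2 and 1 among 450 in parental cells. With another upstream neighbour, the 99-nt exon was at 0.97 in LM2 and 0.92 in parental cells. Exclusion reads there were 5 of 370 informative reads in LM2 and 10 of 292 in parental cells. The 564-nt exon of EPB41L2 (chr6:130869563-130870126) was the best covered exon of the family, with 2248 inclusion reads in LM2 and 1613 in parental cells and no exclusion read in either line. The 123-nt exon (chr6:130867459-130867581) was at 0.58 in LM2 and 0.53 in parental cells. In another of its events, with 295 inclusion reads in LM2 and 253 in parental cells but no exclusion read, it was at 0.73 in LM2 and 0.89 in parental cells, so its direction turned with the event.

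The 54-nt exon of EPB41L2 (chr6:130870328-130870381) was almost always skipped in both lines. The levels were 0.01 in LM2 (interval 0.00 to 0.02) and 0.03 in parental cells (interval 0.02 to 0.06), from 3 inclusion and 245 exclusion reads in LM2 and 9 inclusion and 143 exclusion reads in parental cells. The log2 ratio of the odds of inclusion, LM2 over parental, was -2.22 with an exact interval of -4.90 to -0.32. This was the 1 interval among the 10 exons that left out 0, and the 10 intervals are not corrected for their number. Scaled to the libraries, the inclusion reads gave a ratio of 0.417 with an interval of 0.073 to 1.67, which holds 1. Exclusion reads gave 2.14 (interval 1.74 to 2.65). The difference in level was only -0.02, and its Bayes factor was 0.3, both from the authors' deposited table.

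A 102-nt exon of EPB41L2 (chr6:130876674-130876775, minus strand), annotated in 1 transcript, is shown because it had the largest Bayes factor of the EPB41L2 exons that lacked exclusion reads.
EPB41L2 102-nt exon: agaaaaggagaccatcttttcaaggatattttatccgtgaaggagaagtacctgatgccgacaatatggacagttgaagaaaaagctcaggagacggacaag
Its levels were 0.24 in LM2 (interval 0.14 to 0.37) and 0.68 in parental cells (interval 0.48 to 0.88), and the authors' deposited table gives a Bayes factor of 434. No exclusion read was seen in either line, and 21 inclusion reads in LM2 stood against 44 in parental cells. Scaled to the libraries, its inclusion reads gave a ratio of 0.597, LM2 over parental, with an interval of 0.337 to 1.03, whereas the gene itself stood at 1.77. The neighbouring 168-nt exon (chr6:130872371-130872538), in an event with the same neighbours, had 45 inclusion reads in LM2 and 43 in parental cells, and levels of 0.29 in LM2 and 0.40 in parental cells.

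In EPB41L1, the deposited levels of both compared exons differed by at most 0.04 between the lines in the events used, within wide intervals. A 191-nt exon that holds the start of its coding region in some transcripts (chr20:36173764-36173954) was at 0.27 in LM2 (interval 0.13 to 0.46) and 0.31 in parental cells (interval 0.19 to 0.44). Its informative reads alone, 9 inclusion and 4 exclusion in LM2 and 28 and 5 in parental cells, gave levels further apart, of 0.529 in LM2 and 0.737 in parental cells. In its other events the deposited difference was -0.07, -0.1 and -0.09, and the mean over all its events was -0.075. A 411-nt exon further downstream (chr20:36209488-36209898) was at 0.49 in LM2 (interval 0.32 to 0.68) and 0.48 in parental cells (interval 0.37 to 0.61), from 38 informative reads in LM2 and 77 in parental cells. Both intervals of the log2 odds ratio held 0. The best covered exon without skipping, of 87 nt, had 39 inclusion reads in LM2 and 84 in parental cells and 0 exclusion reads in both.

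EPB41L5 had 4 events around 2 exons, each with 2 versions that differ at an end. Informative reads numbered 4 to 8 per event in LM2 and 4 to 8 in parental cells, too few for a comparison. The levels lay between 0.16 and 0.53 in LM2 and between 0.27 and 0.32 in parental cells.

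The isoforms of EPB41L3 can be described in LM2 cells only. Of its 12 skipped exons, a 117-nt exon near the end of the gene and the 54-nt exon of the best covered event were mostly kept, and most of the others were skipped. The 117-nt and 54-nt exons are shown as the kept exons, and a 36-nt exon as the skipped exon next to the 54-nt one.
EPB41L3 117-nt exon: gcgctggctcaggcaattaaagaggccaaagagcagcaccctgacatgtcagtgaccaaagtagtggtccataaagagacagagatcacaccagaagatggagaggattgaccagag
EPB41L3 54-nt exon: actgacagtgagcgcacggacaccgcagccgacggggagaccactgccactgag
EPB41L3 36-nt exon: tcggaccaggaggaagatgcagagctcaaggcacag
They lie on the minus strand at chr18:5394677-5394793, chr18:5410566-5410619 and chr18:5407701-5407736.

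The 117-nt exon of EPB41L3 was at 0.94 in LM2 (interval 0.90 to 0.97), from 270 inclusion and 9 exclusion reads, and its event was listed for LM2 only. The nearest exon of equal length in another member lies in EPB41L1, with 66.7% of bases identical. The 54-nt exon was at 0.81 in LM2 (interval 0.72 to 0.88), from 183 inclusion and 8 exclusion reads. In parental cells the same event had 2 reads, both of which fit either isoform, and its listed level of 0.50 has an interval of 0.11 to 0.92. The 735-nt exon, listed for LM2 only, was at 0.84 from 49 inclusion reads and 0 exclusion reads, but its event lies between the 75-nt and 123-nt exons, themselves at 0.03. That level therefore holds within rarely used neighbours and does not show that the exon was kept in most EPB41L3 transcripts.

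The 54-nt exons of EPB41L3 and EPB41L2 had opposite use in LM2, at 0.81 and 0.01. They shared 18 of 54 bases (33.3%), so equal length did not go with like sequence here. The 36-nt exon of EPB41L3, immediately downstream of its 54-nt exon, was almost always skipped in LM2, at 0.01 (interval 0.00 to 0.04), from 1 inclusion and 67 exclusion reads.

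The other skipped exons of EPB41L3 were also low in LM2. The 561-nt exon was at 0.00 from 11 inclusion and 94 exclusion reads, the 123-nt exon at 0.03 from 4 inclusion and 30 exclusion reads, and a 3023-nt version that runs through several of these exons at 0.04. The 3023-nt version had 139 inclusion and 30 exclusion reads in LM2, a read-based level of 0.698, which does not correct for its great length. The 75-nt and 99-nt exons were at 0.03 and 0.04 with no exclusion read. Of the 5′ exons, those of 78, 83 and 114 nt were at 0.11, 0.08 and 0.07 from at most 2 informative reads each.

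For the 3023-nt, 561-nt and 123-nt exons the authors' deposited table gives Bayes factors of 981, 20.1 and 23.2 for the difference between the lines. Parental levels of 0.59, 0.55 and 0.65 stand behind these values, from 9, 3 and 1 inclusion reads and no exclusion reads. They are not counted as changes here, since the parental library held at most 9 informative reads for any event of this gene.

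**Figure D4:**
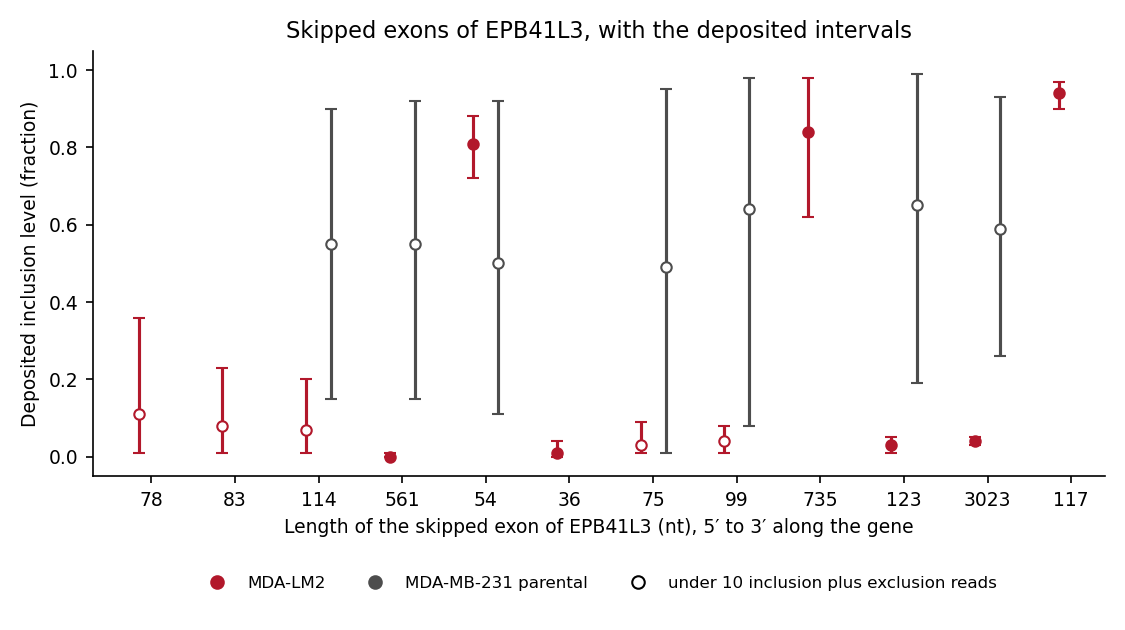
Deposited inclusion level (fraction, vertical axis) of the 12 skipped exons of EPB41L3, named by length in nt and ordered 5′ to 3′, in MDA-LM2 (left, red) and, for the 7 events listed there, parental MDA-MB-231 (right, grey), with bars for the deposited interval and open points for under 10 inclusion plus exclusion reads. In LM2 the 54-nt, 735-nt and 117-nt exons are at 0.81, 0.84 and 0.94 and all others at 0.11 or below, and every parental point is open.

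Exon features that the rule did not use are described next, with overlapping versions of an exon counted separately. Of the 51 exons, 44 lie in the coding region of at least 1 transcript, and 38 (74.5%) have a length divisible by 3, whether or not they are coding, against 40.8% of the 37641 listed exons. The share differed between members, at 9 of 9 exons in EPB41L2, 11 of 14 in EPB41, 10 of 12 in EPB41L3, 8 of 12 in EPB41L1 and 0 of 4 in EPB41L5. Median exon length was 105 nt in the family and 115 nt over all listed exons. The introns in the events had a median of 3574 nt upstream in the family against 2440 nt over all, and of 2494 and 2335 nt downstream. For exons with several events, family introns came from the event with most informative reads. Those over all came from the first event in order of name, so the medians are not fully alike. No exclusion read was seen in either line for 21 of the 51 exons. For this count and that of coding exons, no share over all listed exons is given here. The shares divisible by 3 are therefore not matched for coding status. No family exon lay in a second gene or under a gene on the opposite strand.

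Genes that work with the 4.1 proteins were read from 3 lists. Of 42 genes of the spectrin-actin skeleton and its membrane anchors, 23 could be measured, of which 1 was higher in LM2, 4 were lower and 18 passed neither limit, against 3.25% higher and 8.84% lower over all genes. Their median log2 ratio was -0.16, against -0.12 for all genes. The higher gene was GYPC, glycophorin C, the membrane anchor of 4.1R in red cells, with 114 reads in LM2 and 3 in parental cells, a ratio of 47.5 with a counting interval of 15.9 to 233.8. It ranked 8 from the top of the 8482 genes.

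The 4 lower genes of that list were ANK3, DMTN, MPP1 and CASK. ANK3, an ankyrin, which ties spectrin to membrane proteins, had 14 reads in LM2 and 79 in parental cells (ratio 0.222). DMTN, dematin, which bundles actin, had 11 reads in LM2 and 38 in parental cells (ratio 0.362). MPP1, the p55 scaffold that binds 4.1R and glycophorin C, had 61 reads in LM2 and 205 in parental cells (ratio 0.372). CASK, a related scaffold, had 579 reads in LM2 and 1503 in parental cells (ratio 0.482). SPTAN1, non-erythroid alpha-spectrin, had 3288 reads in LM2 and 4570 in parental cells and did not pass either limit. Of 61 exons compared in this list, 1 was called, against 1.25% of all exons. It was a 63-nt exon of CD44, a receptor that binds FERM proteins. Its level was higher in LM2, at 0.99, against 0.64 in parental cells, although LM2 had 2696 inclusion and 4 exclusion reads and parental cells 1794 and 3.

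Of 25 other FERM domain genes, 18 could be measured, 0 were higher in LM2 and 1 was lower, against 3.25% and 8.84% of all genes, with a median log2 ratio of -0.22. The lower gene was FRMD4A, a polarity scaffold, with 600 reads in LM2 and 1921 in parental cells (ratio 0.391). EZR and RDX, which encode ezrin and radixin, were at ratios of 1.45 and 0.689, and NF2, which encodes merlin, at 1.33. None of the 34 exons compared in these genes was called, against 1.25% of all exons.

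The third list held 20 splicing regulators, chosen because many are known to act on exons of EPB41. Of the 14 measured, 0 were higher in LM2 and 1 was lower, against 3.25% and 8.84% of all genes, and the median log2 ratio was 0.19. The lower gene was NOVA1, with 3 reads in LM2 and 26 in parental cells. RBFOX2, which promotes the 63-nt exon of EPB41 in red cell precursors, was at a ratio of 0.989 (interval 0.922 to 1.06). PTBP1 was at 1.04, ESRP2 at 1.74, MBNL1 at 1.58 and QKI at 1.53, all under 2-fold. None of the 37 exons compared in this list was called, against 1.25% of all exons. Reads of a regulator's events are not its protein level, and its part in any exon above was not tested.

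As a check of the labels, 3 of 6 markers of mesenchymal-like breast cancer lines were measured in both lines, namely CD44, FN1 and AXL. Their summed levels were 2449 RPM in LM2 and 2800 in parental cells. Of the others, VIM and MSN had no listed event, and SPARC had 1 listed event but no ratio. Listed events of CDH1 and ESRP1, markers of luminal cells, had fewer than 20 fitting reads in each line, while KRT8 had 6187 reads in LM2 and 5877 in parental cells and GATA3 had 13 in LM2 and 57 in parental cells. Of 6 blood cell markers, only SPTB could be measured, with 26 reads in LM2 and 29 in parental cells. Neither endothelial marker had a listed event, and the 1 measured fibroblast marker, PDGFRB, had 6 reads in LM2 and 51 in parental cells. Whether cells of another type took part in any value above was not tested.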

How the data were processed

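Libraries were made from total RNA with ScriptSeq v2, per the labels' protocols, and aligned with STAR 2.7 to hg38, per the submitters' processing notes. Not given in the sources used here are the version and settings of MISO, the strand setting and how the 2 samples of each line were combined. Per the file headers, the authors deposited for each line an inclusion level, a fraction from 0 to 1 with interval bounds, and read counts per event in 4 classes: inclusion, exclusion, both isoforms, neither. The authors' deposited comparison gives the LM2 level minus the parental level, a score, and a Bayes factor, a ratio of odds for a difference over none. Listed reads of the class that fits neither isoform made up 74.7% in LM2 and 75.7% in parental cells, and each event listed had at least 20 reads. The LM2 table lists 39981 events with 4701744 inclusion and 955034 exclusion reads, and the parental one 43626 events with 5529885 and 1101330. Columns of other samples numbered 0.

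For each compared exon, the event with most informative reads was used, among those that passed the read minimum and held both kinds of read. Read-based levels divide inclusion reads by 2 and set them against the sum with exclusion reads. Odds ratios have 0.5 added to each count, and their exact conditional 95% intervals use the counts as they were. Ratios of gene levels have an exact conditional 95% interval. Its computation was checked on simulated independent counts. That is the model which the interval assumes, so the check says nothing of other error in these libraries. PCR duplicates are not independent, so these intervals cover counting error only. Named were all 7 genes, the exons that passed the read minimum (up to 5 per gene), the best covered exon, the best covered one listed for 1 line only, and the 3 genes nearest in ratio to the member with the largest one. Other exons were chosen after their values were seen. One exon sequence is not reported here. The members, lists and rules were chosen with earlier results of these data known. Exon sequences come from GENCODE release 29 transcripts. Values were computed in Python 3.11.15 with scipy 1.17.1, numpy 2.4.6 and pandas 2.3.3. Alternatives were other thresholds, read minimums, scalings, events and pseudocounts.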

Additional observations from a re-analysis of the deposited data

How the results depend on the processing

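The count of 0 family exons called changed was also 0 of 10 at a Bayes factor of 5 or 20 and at a difference of 0.1. Over all genes these settings called 228, 132 and 292 of 14109 exons. At a minimum of 20 informative reads it was 0 of 6, against 160 of 11936 exons. With every event counted it was 0 of 13 events, against 204 of 15296. With so few family exons, these counts of 0 do not stand apart from such small shares. Without any read minimum, and without the need for both kinds of read, the count was 5 of 46 exons. Over all genes it was 291 of 33165 exons. With a Bayes factor of 5 and a difference of 0.1 together, chosen after seeing the data, it was 1 of 10, against 397 of 14109. That exon was the 63-nt exon of EPB41L2. With neither requirement and every event counted, also chosen after seeing the data, the count was 6 of 69 events, against 360 of 39160. The 5 and 6 include exons with no exclusion read in either line or at most 9 informative reads in parental cells. The ratio of EPB41L1 was 0.501 when summed over its events, which does not reach 2-fold. In the other gene ratios, no other scaling and no sum over events turned a direction or a call, and those of EPB41L3 lay between 213 and 873. Single events spread further, between 57.5 and 803 in EPB41L3 and between 0.411 and 1.25 in EPB41, where 2 of 21 were above 1. Exon differences, LM2 minus parental, also moved. From reads alone they were 0.211 against 0.03 deposited for the 450-nt EPB41 exon, -0.21 against -0.04 for the 191-nt EPB41L1 exon, and of turned sign for the 57-nt EPB41 exon (-0.025 against 0.04) and the 411-nt EPB41L1 exon (-0.059 against 0.01). As means over events they were 0.165 for the 57-nt EPB41 exon and -0.037 against 0.05 for the 123-nt EPB41L2 exon. The causes were not tested. No paired analysis was possible because each deposited table holds 1 value per line, and for the same reason no replicate could be left out. Depth limits the exons: the deposited intervals of the 10 compared exons had a median width of 0.26 in LM2 and 0.19 in parental cells.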

Other observations

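GYPC, which encodes the red cell anchor of 4.1R, had 2 listed events beside its higher level in LM2. A 57-nt exon was at 0.96 in LM2 (interval 0.90 to 0.99), from 69 inclusion and 2 exclusion reads, and parental cells had 3 reads that fit both isoforms and none that told them apart. An 818-nt exon was at 0.08 in LM2 (interval 0.04 to 0.15), from 10 inclusion and 13 exclusion reads, against 4 inclusion reads and 0 exclusion reads in parental cells. GYPC thus shared with EPB41L3 a parental library too thin for any statement on isoforms. These values were chosen after they were seen.

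CADM1, a cell adhesion molecule known to bind 4.1B, had too few reads for a ratio. Its 76-nt event had 4 reads in LM2 and 1 in parental cells that fit an isoform, and 386 in LM2 and 1553 in parental cells that fit neither. A further 3 events of CADM1 were listed for parental cells only, each with 2 fitting reads.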
